A study of Mus musculus with 2 samples.

Results

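Lhx2, Ldb1 and Emx2 are genes whose products take part in olfactory receptor choice, the process by which an olfactory neuron settles on a single receptor gene. The loci were chosen by gene name, with earlier results of these data known. They are 3 of the 21755 protein-coding genes of GENCODE M21 (GRCm38) on the 20 chromosomes that carry boundaries. For each gene the nearest domain boundary on either side of the transcription start site (TSS, the 5′ end of the gene model) was read from the deposited list. Immediate neuronal precursors, the progenitors that give rise to olfactory neurons, were taken from FVB/NTac mice, pups of mixed sex, by a sort of the olfactory epithelium on an Ngn1-GFP reporter (Ngn1 is Neurog1). The reporter is named in the sort protocol, while the sample labels list no modification. The cells form a single untreated group, and no other genotype or cell type was analysed here. The 2 biological replicates of 2200000 and 2100000 cells were fixed in 1% formaldehyde and digested with DpnII for in situ Hi-C, which joins DNA ends that lie close together in the nucleus. The list holds 7841 boundaries called on the contact matrix combined over both replicates. No value below therefore has a replicate error, no locus could be tested, and the number of contacts behind each call is unknown. Expression was not analysed here, so the cell type named in the labels could not be checked against marker genes.

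LHX2 is a LIM homeodomain transcription factor, and LDB1 is an adaptor without a DNA-binding domain that binds LIM domains and can link distant DNA elements by pairing with itself. In mouse olfactory neurons LHX2, EBF factors and LDB1 occupy the enhancers of olfactory receptor genes, which gather across chromosomes. EMX2 is a homeodomain factor of a different family, and mice without it transcribe many olfactory receptor genes at lower levels. A domain is the stretch between neighbouring boundaries, within which contacts are more frequent than across its edges. A boundary is given as a 5 kb interval with a class and a score. All scores are values given by the authors, and how they define the score is not given in the sources used here. Every strong boundary of the list scored higher than every weak one.

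Lhx2 and Emx2 started beside a strong boundary, and Ldb1 started farther from its nearest one. The 2 genes within 10 kb stood against a background of 16.4% of all protein-coding genes for boundaries of either class. For a strong nearest boundary the background was 10.6%. The median gene started 55.3 kb from a boundary. The loci differed in the side on which that boundary lay. At Lhx2 it was downstream of the TSS and inside the gene, while at Ldb1 and Emx2 it was upstream. The distances at Lhx2 (0.72 kb) and Emx2 (3.37 kb) are shorter than the 5 kb of an interval. The side at these 2 genes therefore rests on an offset below the resolution of the calls. Among the 2466 genes with a boundary within 10 kb that did not hold the TSS, 43.9% had it downstream. The authors' scores of the 3 nearest boundaries were 0.968 (Lhx2), 1.19 (Ldb1) and 1.99 (Emx2), against a median of 0.533 over the list, in which the strong class begins at 0.5.

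**Figure D1:**
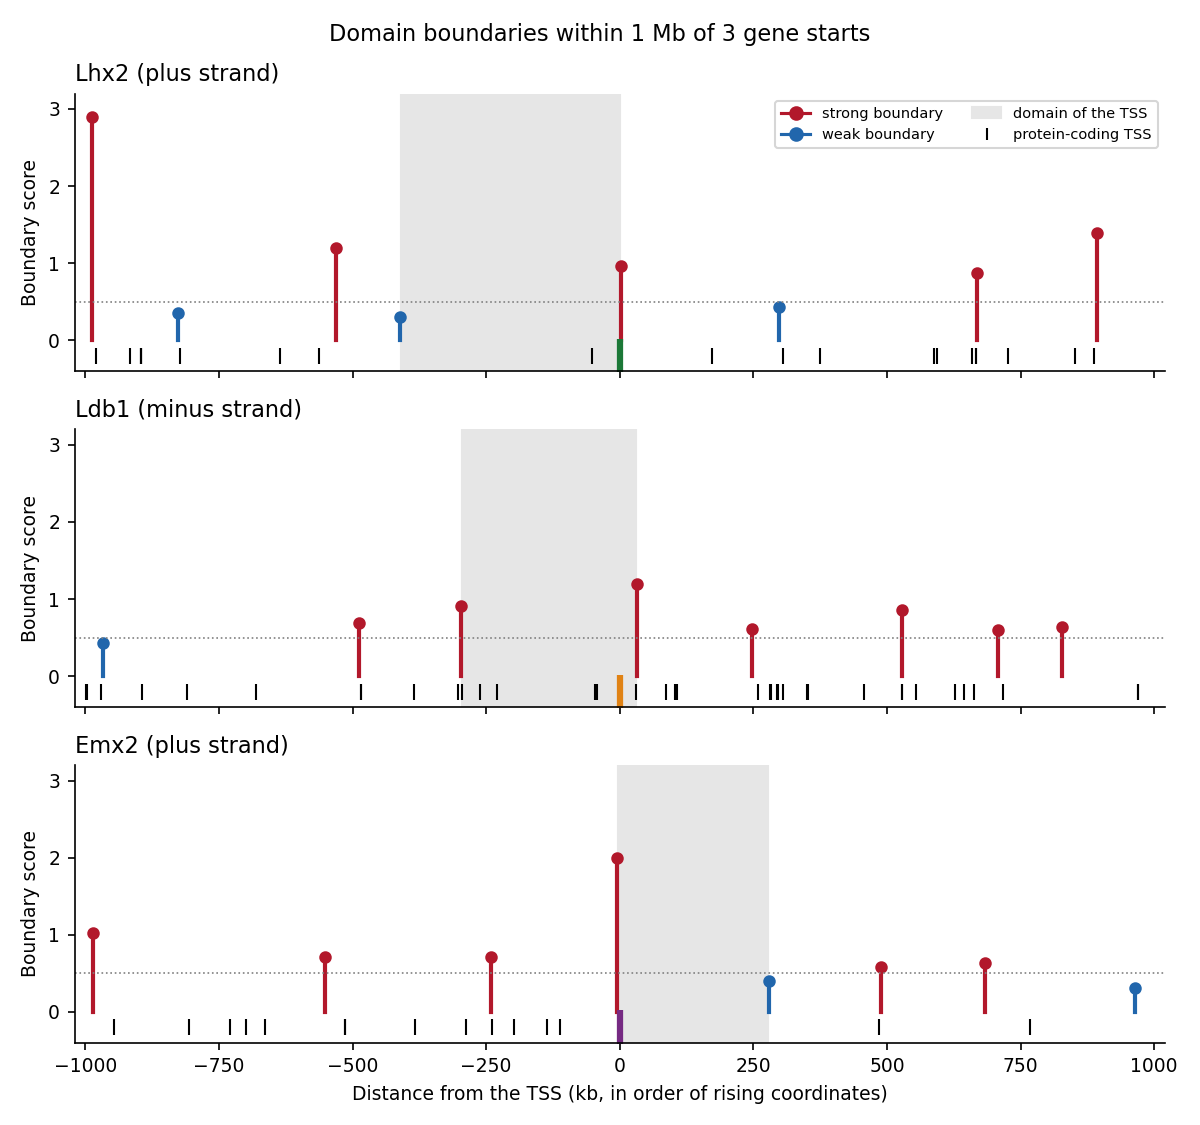
Boundary score against distance from the TSS (kb) for the boundaries within 1 Mb of each gene, strong ones in red and weak ones in blue, with the domain of the TSS in grey and protein-coding TSS as ticks (the coloured tick is the gene itself). The boundary next to Emx2 (1.99) stands above the other 7 in its panel, Lhx2 lies at the right edge of its domain and Emx2 at the left edge of its own.

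The exact matches to 3 motifs around the flanking boundaries are shown first, so that the sequences can be read beside the positions and scores that follow. The motifs were the CTCF motif, the LIM homeodomain core TAATTA, and the EBF core. CTCF is the zinc finger protein found at many domain boundaries, and matches were sought on both strands of each interval extended by 10 kb on either side. The motif is written in capitals with 9 bases on each side, read 5′ to 3′ along the strand of the match, from GRCm38.p6.

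CTCF motif matches, 1 beside the boundary in Lhx2 (chr2:38345618-38345629, minus strand), 3 at the downstream boundary of Ldb1 (chr19:45737385-45737396, plus; chr19:45746534-45746545, plus; chr19:45747677-45747688, minus) and 1 at the downstream boundary of Emx2 (chr19:59743115-59743126, plus), shown because they are the only ones at these 6 boundaries.
Lhx2 downstream: gtagaaaaaCCACCAGGTGGCtgacatctc
Ldb1 downstream, outer: gtgggcaccCCAGCAGATGGCgaggggagc
Ldb1 downstream, plus strand: taaacacgcCCACCAGAGGGCgctagttcc
Ldb1 downstream, minus strand: ccccagggaCCACCAGGTGGCactgtggcc
Emx2 downstream: catactaggCCACTAGAGGGCaaatagtct

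LIM homeodomain core matches inside the boundary interval of Lhx2, shown because this interval held 6 of them and lies in the first intron of the longest transcript (chr2, plus strand, starting at 38340330, 38340928, 38343400, 38343904, 38344223 and 38344820).
Match 1: tcccccactTAATTAtgtgcagtt
Match 2: aatggatggTAATTAtccaaatgt
Match 3: cctatcactTAATTAatctctccc
Match 4: atagtacatTAATTAaacaacttg
Match 5: agatcgctcTAATTAtggctgccc
Match 6: tagttgtttTAATTAatggaagaa

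Lhx2 (ENSMUSG00000000247.11, chr2:38339281-38369733, plus strand) started 0.72 kb before a strong boundary at chr2:38340001-38345000. Of all protein-coding genes, 6.42% started closer to a boundary. The score of 0.968 was higher than that of 78.7% of the list and ranked 125 among the 581 boundaries of chromosome 2. Of the 3 boundaries within 500 kb of the TSS it had the highest score and was the only strong one. It was the fourth of 8 within 1 Mb, where the highest score was 2.90.

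The interval lay wholly within Lhx2, in an intron apart from a noncoding first exon of a shorter transcript. The TSS and 0.72 kb of the gene were on the left of it, 5 kb were in it and 24.7 kb on the right. Of the 7 annotated transcripts, 2 began on the left, 1 inside the interval and 4 on the right. The starts on the left were 0.72 and 0.513 kb from the interval, and those on the right between 5.76 and 8.80 kb from it. The left starts include the longest transcript and the right ones another protein-coding transcript of 5 exons, which began 11.5 kb after the TSS. All annotated coding sequence of Lhx2 lay on the right, beginning 6.77 kb beyond the interval, so the boundary as called lay between the TSS and the protein-coding part of the gene. The 0.72 kb from the TSS is less than the 5 kb of the interval, so the place of the left starts relative to the boundary is below its resolution. A whole boundary between annotated starts was found in 5.4% of protein-coding genes, and in 4.3% of those 20 to 50 kb long, the length class of Lhx2. Which of these starts the precursors use is not known here.

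**Figure D2:**
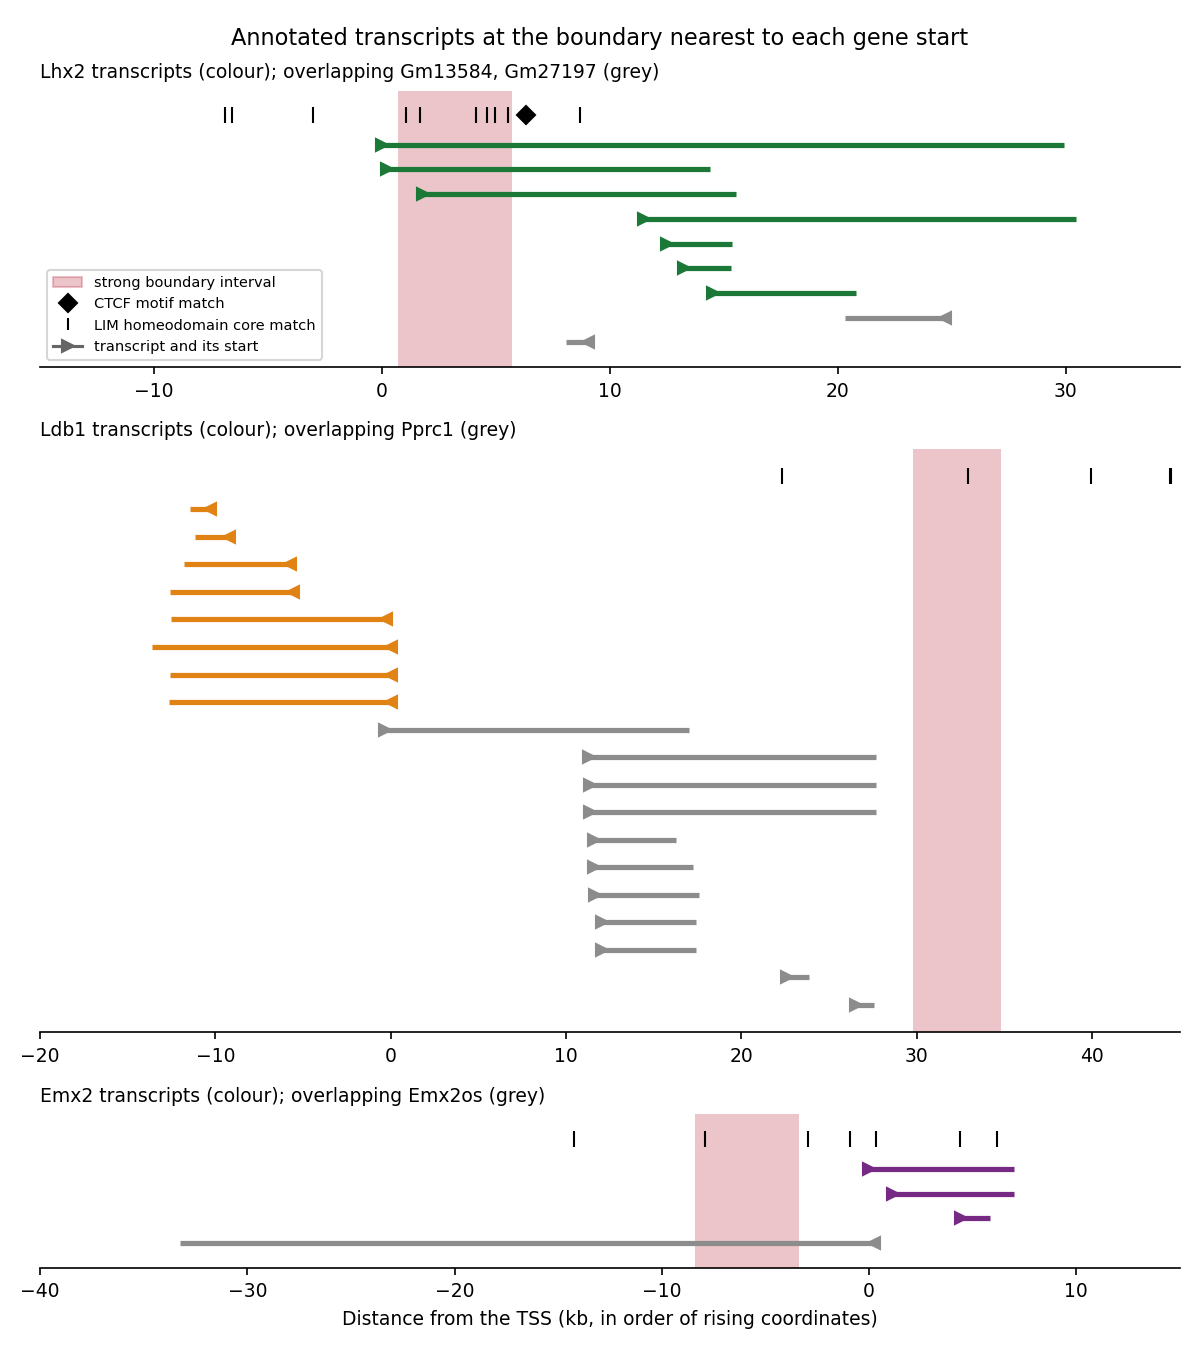
Annotated transcripts against distance from the TSS (kb) at the boundary nearest to each gene, with arrowheads at transcript starts, strong boundary intervals in pink, LIM homeodomain core matches as ticks and CTCF motif matches as diamonds. Transcripts of Lhx2 begin on both sides of the interval, those of Ldb1 all begin on 1 side, and the antisense gene Emx2os runs through the interval at Emx2.

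The domain that holds the TSS of Lhx2 reached back over 410 kb (chr2:37930001-38340000), longer than 77.9% of the 7821 domains, whose median was 260 kb. Its far edge was a weak boundary (chr2:37925001-37930000, score 0.307) with a score above that of only 24.8% of the list. That boundary lay in an intron of Dennd1a, which encodes a regulator of membrane traffic and runs from inside the domain across its far edge. Dennd1a started 51.9 kb before Lhx2 and was the only other protein-coding gene starting in the domain. Of the remaining 5 gene starts in it, 3 are of a class whose coding status GENCODE leaves undetermined (TEC), and the others were those of an antisense gene and of the microRNA gene Gm44455. The median domain held 1 protein-coding TSS.

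Most of the body of Lhx2 lay in the next domain (chr2:38345001-38635000, 290 kb). The antisense genes Gm27197 and Gm13584, which overlap Lhx2, started there, 9.04 and 24.7 kb after its TSS. Nek6, which encodes a mitotic kinase and is named here after its values were seen, was the only protein-coding gene that started in this domain. Its far edge was a weak boundary (score 0.428), so the boundary inside Lhx2 had the highest score of the 3 that delimit these domains.

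The Lhx2 boundary interval itself had no CTCF motif match, and the nearest lay 0.618 kb beyond its right end. A match was present in 6.9% of all boundary intervals, against 2.4% of all fully assembled 5 kb bins of the genome, and in 26.0% of the extended intervals. The 6 LIM homeodomain core matches in the interval compare with a median of 2, and 4.25% of boundary intervals held at least 6. Of all 5 kb bins, 4.82% did. An EBF core match lay 6.02 kb before the TSS, and 36.8% of the extended intervals held such a match. GC content was 41.9% in the interval, near the median of 42.8%, and 48.7% in the extended interval, above 89.9% of the list.

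Emx2 (ENSMUSG00000043969.4, chr19:59458372-59465357, plus strand) started 3.37 kb after a strong boundary at chr19:59450001-59455000. Of the boundaries nearest to or flanking the 3 genes this one had the highest score. The score of 1.99 ranked 123 in the list, above 98.4% of it, and 5 among the 195 boundaries of chromosome 19. With this score as the cut-off, 64 protein-coding genes, 0.294% of all and Emx2 among them, started within 10 kb of such a nearest boundary. It was also the highest of the 8 boundaries within 1 Mb, the others scoring between 0.311 and 1.02.

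Emx2 lay entirely in the domain that follows, with all 3 transcripts starting there. That domain was 280 kb long (chr19:59455001-59735000), longer than 54.4% of domains, and the TSS stood at 1.2% of its length. Its far edge was a weak boundary (chr19:59735001-59740000, score 0.396), which overlapped no annotated gene. Emx2 was the only protein-coding gene that started in the domain, as was the case for 9.55% of the 20428 protein-coding genes that start in a domain with a boundary at each edge, and 24.9% of domains held a single protein-coding TSS. The other 5 starts belonged to noncoding genes and a pseudogene, including the long noncoding gene 2700089I24Rik 34.8 kb after the TSS. On the other side of the boundary a domain of 230 kb held 3 protein-coding TSS.

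The boundary beside Emx2 lay in an intron of Emx2os, the antisense gene that shares its start region. Emx2os (chr19:59425104-59458635, minus strand) started 0.263 kb inside Emx2 and ran through the whole interval into the domain before it. The 2 genes therefore started in the same domain, and only the body of Emx2os crossed the boundary. Neither this interval nor its extension by 10 kb held a CTCF motif match. The same held for most strong boundaries, as 33.7% of them had a match in the extended interval. Only exact matches to a single consensus were counted, so sites that differ from it would be missed. GC content was 48.7% in the interval, above 87.2% of the list, and the observed CpG number was 0.404 of that expected from base composition, above 91.7%.

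The sequence before the start of both genes is shown because these starts lie nearest to a boundary, with CpG dinucleotides in capitals. Each run holds the 150 bases before the TSS on the plus strand of GRCm38.p6, chr2:38339131-38339280 for Lhx2 and chr19:59458222-59458371 for Emx2.
Lhx2: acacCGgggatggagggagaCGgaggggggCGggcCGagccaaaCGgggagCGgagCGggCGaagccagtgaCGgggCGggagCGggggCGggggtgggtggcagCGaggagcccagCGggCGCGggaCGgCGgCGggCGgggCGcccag
Emx2: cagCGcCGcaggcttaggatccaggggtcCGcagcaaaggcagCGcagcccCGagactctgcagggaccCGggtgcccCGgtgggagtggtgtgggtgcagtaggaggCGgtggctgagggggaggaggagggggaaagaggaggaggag

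The run of Lhx2 held 21 CpG dinucleotides and that of Emx2 held 8. GC content was 81.3% and 70.0%, and neither run held a LIM homeodomain core match. DpnII cuts at GATC, and 1 such site lay in the run of Emx2 and none in that of Lhx2.

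Ldb1 (ENSMUSG00000025223.15, chr19:46031570-46045214, minus strand) was the member without a boundary within 10 kb. Its TSS lay 29.8 kb from a strong boundary on the upstream side (chr19:46075001-46080000), and 31.3% of protein-coding genes started closer to a boundary. The score of 1.19 exceeded that of 87.9% of the list and ranked 26 among the 195 boundaries of chromosome 19. It was the highest of the 8 boundaries within 1 Mb. All 4 boundaries within 500 kb were strong, with the lowest at 0.616.

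Unlike the other 2 loci, the domain of Ldb1 had a strong boundary at each edge. It was 325 kb long (chr19:45750001-46075000), longer than 64.3% of domains, and its downstream edge (chr19:45745001-45750000) scored 0.907. Both edges held a gene start. The upstream interval held that of Nolc1, which encodes a nucleolar protein, and the downstream interval those of the histone chaperone gene Npm3 and the antisense gene Gm15491. All 8 transcripts of Ldb1 started in the domain, between 29.8 and 40.1 kb from the upstream boundary, and the gene body was wholly inside it.

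The domain of Ldb1 was the most crowded of the 3, with 6 protein-coding TSS. At least as many were found in 12.9% of domains. Pprc1, which encodes a coactivator related to PGC-1, was annotated to start 0.328 kb inside Ldb1 on the opposite strand. This start rests on a single noncoding transcript of Pprc1, and its other transcripts began 11.3 to 26.5 kb upstream of Ldb1. Hps6, which encodes a subunit of a complex for lysosome-related organelles, started 41.7 kb away and Armh3 46.7 kb away. The potassium channel regulator gene Kcnip2 (229 kb) and Mgea5, which encodes the enzyme that removes O-GlcNAc from proteins (261 kb), started near the other edge. The starts of 3 further genes were noncoding or of a pseudogene.

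The CTCF motif matches at Ldb1 were on the downstream side, away from the TSS. The interval there held 1 match on each strand, and 0.281% of boundary intervals (22 of 7841) held at least 2. The upstream interval, which is nearer to the TSS and has the higher score, had none even when extended. The downstream interval also held an EBF core match, as did 9.31% of boundary intervals. Its GC content of 56.1% was above that of 99.2% of the list, and that of the upstream interval was 48.7%.

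**Figure D3:**
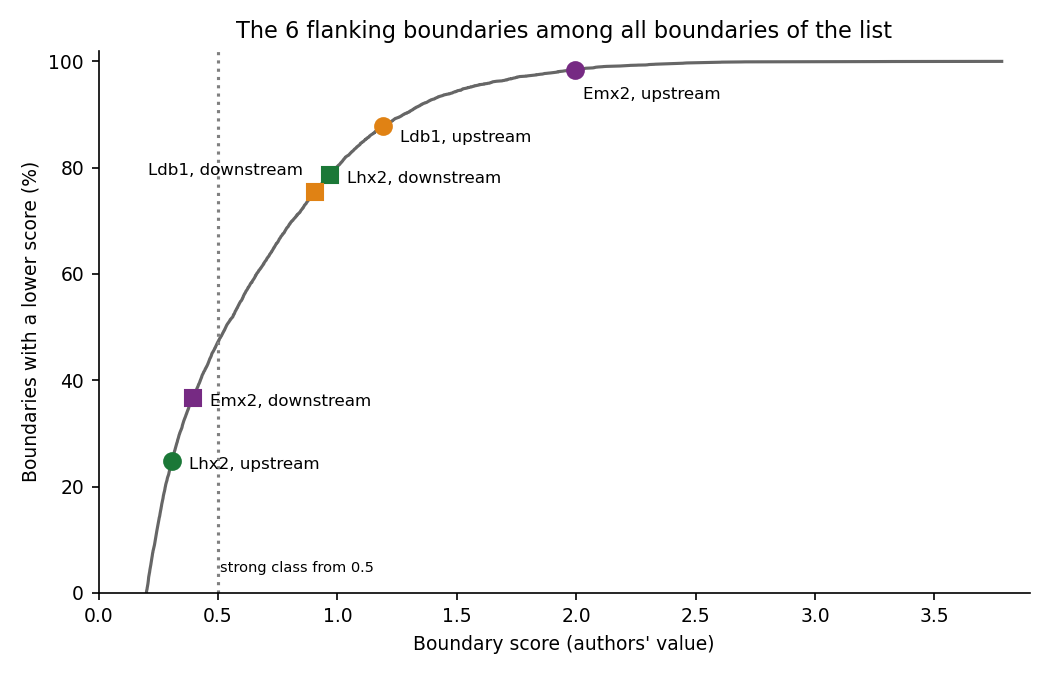
Share of the 7841 boundaries with a lower score (%) against the authors' score, as a grey line, with the 6 flanking boundaries marked by gene (circles upstream of the gene, squares downstream). Lhx2 and Emx2 each have a weak and a strong flank, and both flanks of Ldb1 are strong.

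Of the 6 flanking boundaries, 4 were strong and 2 weak. The weak ones were the far edges of the domains of Lhx2 and Emx2, 409 and 277 kb from the TSS. The far edge of the domain of Emx2 stood apart in the number of DpnII sites, on which the resolution of Hi-C depends. It held 4 in its 5 kb, against a median of 12, and 0.217% of boundary intervals held fewer. The other 5 intervals held 11 to 16. Whether the site number affected the score or the position of this boundary was not tested.

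**Figure D4:**
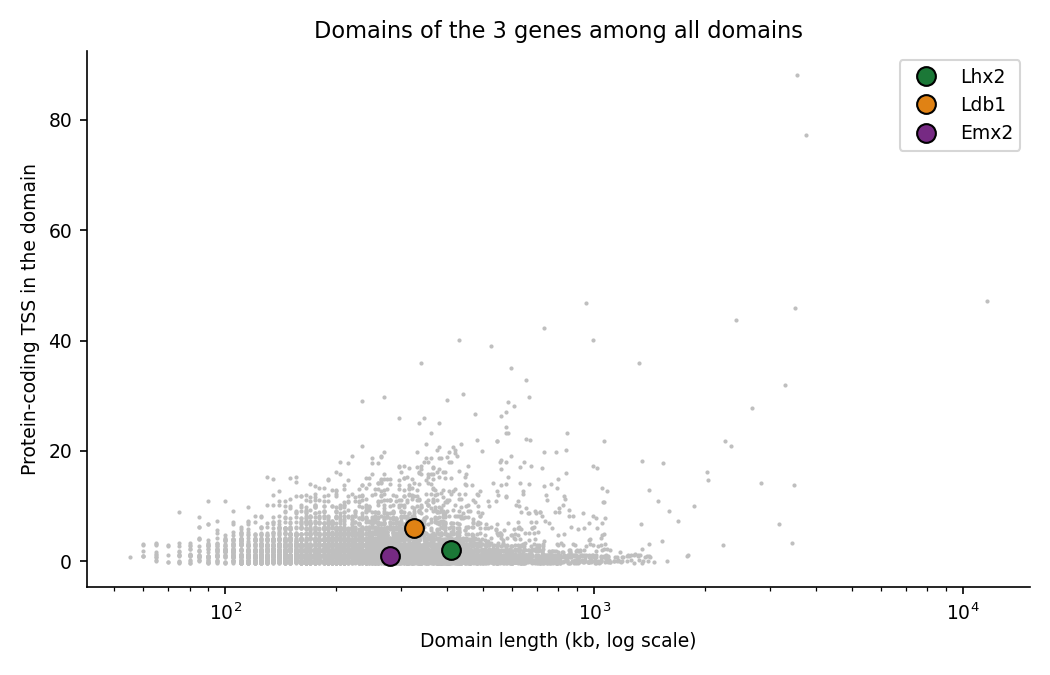
Number of protein-coding TSS in a domain against domain length (kb, log scale), with each of the 7821 domains as a grey point (jittered vertically) and the domains of Lhx2, Ldb1 and Emx2 in colour. The 3 domains lie between 280 and 410 kb and hold 2, 6 and 1 TSS.

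Of the 3 genes only Lhx2 had olfactory receptor genes within 2 Mb, and none of them lay within 1 Mb of it. A run of 27 receptor genes (chr2:36373519-37332772) ended before it on chromosome 2, and Olfr368, its last gene, started 1.01 Mb from the TSS of Lhx2. Between these starts lay 4 boundaries, 2 of them strong, including that with a score of 2.90. None of the 27 genes was in the domain of Lhx2. None started within 10 kb of a boundary, against 16.4% of all protein-coding genes, and the median distance was 108 kb, against 55.3 kb over all. These genes are neighbours that share their boundaries, so they do not count as 27 independent positions. On chromosome 19 the nearest receptor gene to both Ldb1 and Emx2 was Olfr1505, at 32.1 and 45.5 Mb, with 105 and 146 boundaries between. Ldb1 and Emx2 themselves were 13.4 Mb apart, with 41 boundaries between them. Contacts between these loci, or between them and receptor genes, were not analysed here.

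The 3 genes were set beside their relatives and partners in a list of 23 genes, which takes in the LIM homeodomain, LIM only, LDB, SSBP and EMX families. Of these, 5 (21.7%) started within 10 kb of a boundary, against 16.4% of all genes. The list was chosen with earlier results of these data known, so its 95% Wilson interval (9.66 to 41.9%) is no test against the background. The interval only serves as the limit for the alternative settings given below. With strong boundaries alone the count was 3 of 23 (13.0%), against 10.6% of all genes. The 5 genes near a boundary of either class were Lhx2, Emx2, Lhx9 (1.42 kb, weak), Ssbp4 (3.87 kb, strong) and Ssbp2 (4.72 kb, weak). Without the 3 members, and again with both classes, it was 3 of 20, or 15%, so the rest of the list was close to the background. The median distance was 34.8 kb with the members and 43.3 kb without them.

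Within this list Lhx2 had the shortest distance, Emx2 the highest score and Ldb1 the next highest. Their closest paralogues had lower scores. Lhx9, the nearest relative of Lhx2, also started close to a boundary, but a weak one upstream of it (score 0.486). Ldb2 started 30.3 kb from a weak boundary (score 0.316), almost the same distance as Ldb1 from its strong one. Emx1 started 42.4 kb from a strong boundary (score 1.05). These are single calls without a replicate error.

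**Figure D5:**
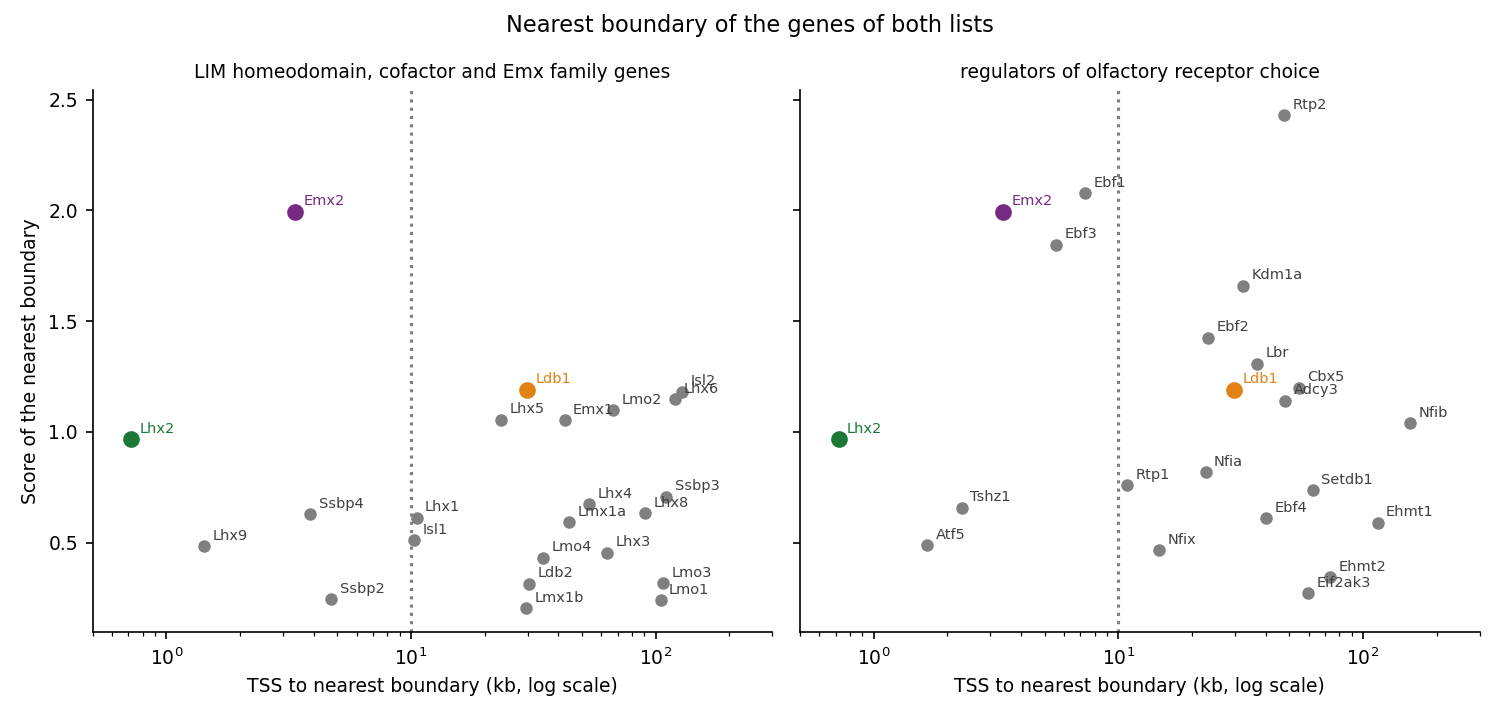
Score of the nearest boundary against its distance from the TSS (kb, log scale) for the genes of both lists, with Lhx2, Ldb1 and Emx2 in colour and the dotted line at 10 kb. In the left panel Lhx2 is the closest to a boundary and Emx2 has the highest score, and in the right panel Ebf1 and Rtp2 score higher than Emx2.

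In a list of 22 regulators of olfactory receptor choice, 6 (27.3%) started within 10 kb of a boundary, against 16.4% of all protein-coding genes. This list was also chosen with earlier results known, and its 95% Wilson interval (13.2 to 48.2%) is likewise no test against the background. Without the 3 members it was 4 of 19 (21.1%). The other 4 were Atf5 (1.66 kb, weak, score 0.490), Tshz1 (2.30 kb, strong, score 0.659), Ebf3 (5.56 kb, strong) and Ebf1 (7.32 kb, strong). Atf5 encodes a transcription factor of the stress response that accompanies receptor choice, and the EBF factors bind receptor enhancers with LHX2. The score of Emx2 ranked 3 in this list, after Rtp2 (2.43, at 47.6 kb), which encodes a chaperone of receptor transport, and Ebf1 (2.08). Ebf1 and Ebf3 (1.85) shared with Emx2 a strong boundary upstream within 10 kb and a domain with no other protein-coding TSS. Of all protein-coding genes, 10.6% had a strong nearest boundary within 10 kb on either side or at the TSS. Of the 20428 that start in a domain, 9.55% were its only protein-coding TSS. How many genes combine these traits was not counted, so whether the combination is uncommon is not known. With strong boundaries alone the domain of Emx2 held 2 protein-coding TSS. The median score of the nearest boundary was 1.00 in this list, 0.818 without the members and 0.65 over all protein-coding genes.

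The genes most like each member in their boundary surroundings were found among 20428 protein-coding genes, by the log10 distances to the upstream and downstream boundary and their scores, each in SD over all genes. For Lhx2 they were Vta1, Olfr996 and Tdp1, at 0.329 to 0.471 SD. Olfr996 is an olfactory receptor gene of chromosome 2 with a boundary 0.786 kb downstream (score 0.876). For Ldb1 they were Gli2, Pnpla8 and Kif7, at 0.188 to 0.238 SD. For Emx2 they were Svip, Grm4 and Map3k21, at 0.378 to 0.492 SD, each with an upstream boundary between 3.60 and 5.45 kb away that scored 1.93 to 2.03. Such close distances and scores follow from the choice. The number of protein-coding TSS in the domain was not used for it. That number was 3, 8 and 3 for the genes like Lhx2, which had 2. It was 1, 3 and 6 for those like Ldb1 (6), and 3, 3 and 2 for those like Emx2 (1).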

How the data were processed

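In situ Hi-C was performed on 2 replicates, whose contact lists were combined into a single matrix on which boundaries were called, per the labels and the series' design text. The build was GRCm38, per the submitters' processing notes. Not given in the sources used here are caller and settings. The deposited boundary score is the authors' value for each 5 kb interval. Its definition and normalization are not stated, the lowest strong score is 0.5 and the lowest weak score 0.2. It served to describe and rank boundaries within the list and, in units of its SD over all genes, as a part of the measure of likeness between genes. Contact matrices and insulation tracks were not analysed here.

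Genes came from GENCODE M21 and sequence from GRCm38.p6, and no boundary lay beyond a chromosome end. The reference strain is not the strain of the cells. Distances run from the TSS to the nearer edge of the interval, and domains lie between inner edges. Percentiles are shares of the list with a lower value. No test was made, because both replicates were pooled before calling. The steps that find the flanking and nearest boundaries and merge close ones were checked on simulated lists, and the other steps were not. Python 3.11.15 and numpy 2.4.6 were used.

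The members and both gene lists were chosen with earlier results of these data known. Named genes were the members, protein-coding genes starting in their domains (at most the 10 nearest) or overlapping a flanking boundary, noncoding genes overlapping a member, list genes within 10 kb of a boundary, the paralogues, the nearest receptor gene and the 3 most similar genes per member. Nek6, Rtp2, other noncoding genes, the counts of boundaries between transcript starts and the domains beyond the nearest boundary were added after seeing the data. Alternatives were only the strong class, only scores from the median up, merging within 50 kb, other transcript starts, interval midpoints, other gene counts, 25 kb and the bare interval. A distance or length within 5 kb, the size of a bin, counted as unchanged, as did a count within 1.5 times and a share within its 95% Wilson interval.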

Additional observations from a re-analysis of the deposited data

How the results depend on the processing

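Of 76 values recomputed under the alternatives, 65 stayed within the limits given above, and the distances and scores of the nearest boundary were among these at all 3 loci. For some settings that was fixed in advance. The nearest boundaries of all 3 genes are strong and score above the median, so dropping weaker boundaries could not change their distance or score. Interval midpoints shift a distance by less than the 5 kb limit. With strong boundaries alone, and with boundaries at or above the median score, the domain of Lhx2 grew to 530 kb, that of Emx2 grew to 490 kb, and the latter held 2 protein-coding TSS in place of 1. Taking the transcript start nearest to a boundary placed the start of Lhx2 inside the interval, and its domain then spanned 705 kb. Counting genes of all classes gave 7 starts in the domain of Lhx2 and 6 in that of Emx2. In the bare interval no CTCF motif match was left at Lhx2 or Emx2 (0 in place of 1 at each). Merging boundaries within 50 kb and counting gene bodies gave the same values as before. Within 1 Mb of each gene all neighbouring boundaries lay more than 50 kb apart, so merging could not change the values of the loci. It also left the number of all protein-coding genes within 10 kb of a boundary at 3570 of 21755. Interval midpoints made the distances 3.22 kb (Lhx2), 32.3 kb (Ldb1) and 5.87 kb (Emx2) and the domains 5 kb longer, and 8 in place of 6 protein-coding TSS lay in that of Ldb1. The shares of the family list and the receptor choice list stayed inside their Wilson intervals but moved with the setting, as did the background. They were 13.0% and 22.7% with strong boundaries alone (all genes 10.6%) and also with scores at or above the median (all genes 10.2%). With the transcript start nearest to a boundary they were 30.4% and 31.8% (all genes 20.8%), and within 25 kb 34.8% and 45.5% (all genes 27.8%). No paired analysis was possible because there is a single group and its replicates were pooled, which also means that no replicate could be left out. The depth behind the calls is unknown, so boundaries missed at this depth cannot be told from absent ones.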
